A study of Mus musculus with 14 samples.

Results

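Heat shock proteins and other chaperones were taken as every gene of the count table whose symbol marks it as a heat shock protein (Hspa, Hspb, Hspd, Hspe, Hsph and Hsp90), a J protein (Dnaja, Dnajb and Dnajc), a subunit of the chaperonin TRiC (*Tcp1* and Cct) or a Bag cochaperone. *Hspg2*, *Hspbap1*, *Hspbp1* and symbols with "-ps" were left out. The rule used names only and no measured value, and it gave 79 members among 19525 genes. By textbook location, 53 were placed in the cytosol or nucleus, 13 in the endoplasmic reticulum and 8 in mitochondria, and 5 were not placed.

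Chaperones bind unfolded stretches of other proteins and keep them from clumping until they fold. Hsp70 proteins do so in cycles driven by ATP, J proteins hand them clients and trigger ATP hydrolysis, and Bag proteins help to release the nucleotide. Hsp90 acts late in folding, on kinases and steroid receptors among others. TRiC is a ring-shaped chamber that folds actin and tubulin. Small heat shock proteins hold clients without ATP. Heat shock factor 1 induces many of the cytosolic and mitochondrial members through DNA sites called heat shock elements. The unfolded protein response induces part of the endoplasmic reticulum set.

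Polyadenylated RNA was measured in the cytosolic lysate of 4T1 spheroids after 5 days in lung-like medium (LLM), which imitates the nutrients of lung interstitial fluid. 4T1 cells come from a triple-negative mammary tumour of a mouse and grow here as spheroids, which are rounded aggregates. All groups carried a lentiviral hairpin and came from polyclonal cells selected with puromycin. The non-targeting hairpin defines shSCR, with medium holding 700 µM aspartate (ASP shSCR, n = 4) or no added aspartate (NoASP shSCR, n = 3). Knockdown cells had a hairpin against *Grin2d*, an NMDA receptor subunit (ASP shGRIN2D, n = 3), or against *Dhps*, the enzyme of the first step of eIF5A hypusination (ASP shDHPS, n = 4), and received 700 µM aspartate in every library. The RNA was the input of polysome profiling of independent spheroid pellets, and the study's methods describe its replicates as biologically independent.

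Total counts lay between 12731123 and 23231378 per library. *Dhps* lay at 5.46 to 9.08 CPM (counts relative to the scaled library total) in ASP shDHPS and at 16.7 to 22.1 CPM in ASP shSCR. *Grin2d* lay at 2.06 to 3.13 CPM in ASP shGRIN2D and at 3.23 to 4.16 CPM in ASP shSCR, ranges that did not overlap. Its log2 fold change of -0.55 between these groups missed the threshold (edgeR adjusted p = 0.516). It lay at 2.21 to 4.59 CPM in ASP shDHPS and at 3.05 to 6.95 CPM in NoASP shSCR, and both ranges overlapped that of ASP shGRIN2D. The replicate 2 libraries of both shSCR groups stood apart on the first principal component, at -25.8 and -19.7 against -8.66 to 6.28 for the other 5 shSCR libraries. ASP shDHPS replicate 1 stood at the other end, at 27.6 against 6.33 to 19.1 for the other 3 ASP shDHPS libraries. The 4 epithelial markers *Krt8*, *Krt18*, *Epcam* and *Cdh1* reached 376 to 1787 CPM. Of 7 markers of immune, endothelial and stromal cells, 4 were listed and summed to 0.103 to 0.98 CPM. Among these, *Dcn* had at most 1 count, *Cdh5* at most 3, *Pecam1* at most 10 and *Ptprc* at most 12 in any library.

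The promoter windows of 63 members were in the RefSeq table used here (GRCm38.p6, 250 bases before to 50 after each start). A heat shock element was searched on both strands as GAA, 2 bases, TTC, 2 bases, GAA, and as its mirror with TTC outside and GAA inside. It stood in 4 of the 63 members, *Dnajb6*, *Hspd1*, *Hspe1* and *Hsph1* (6.35%), against 0.662% of 27025 genes. With at most 1 mismatch it stood in 16 of 63 (25.4%) against 8.15%. Each gene was counted on its own, also *Hspa1a* and *Hspa1b*, whose windows are nearly identical. The endoplasmic reticulum stress element, CCAAT, 9 bases, CCACG, stood in *Dnajc3*, *Hsp90b1* and *Hspa5* (4.76%) against 0.137%. The cAMP response element TGACGTCA stood in 1 member, *Dnajc27*, and in 2.03% of genes. A match describes letters and not a bound site.

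Shown are *Hspb8*, which passed the test after *Dhps* knockdown, *Hspa1b*, its near-copy *Hspa1a* and *Hspb1*, which passed in comparisons with the *Grin2d* knockdown, and *Hsph1* and *Hspe1*, which had the smallest adjusted p with the replicate number. Capitals mark heat shock element matches with at most 1 mismatch, and overlapping matches are joined. The windows lie at chr5:116422815-116423114 (*Hspb8*, minus strand), chr17:34959189-34959488 (*Hspa1b*, minus), chr17:34972107-34972406 (*Hspa1a*, minus), chr5:135887669-135887968 (*Hspb1*, plus), chr5:149636287-149636586 (*Hsph1*, minus, 1 of 2 windows) and chr1:55087898-55088197 (*Hspe1*, plus).
Hspb8: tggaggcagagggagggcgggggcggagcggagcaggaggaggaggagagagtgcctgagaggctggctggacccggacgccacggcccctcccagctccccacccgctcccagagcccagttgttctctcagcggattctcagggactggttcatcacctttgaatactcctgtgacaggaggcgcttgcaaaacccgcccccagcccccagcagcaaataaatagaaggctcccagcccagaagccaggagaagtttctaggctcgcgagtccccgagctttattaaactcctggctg
Hspa1b: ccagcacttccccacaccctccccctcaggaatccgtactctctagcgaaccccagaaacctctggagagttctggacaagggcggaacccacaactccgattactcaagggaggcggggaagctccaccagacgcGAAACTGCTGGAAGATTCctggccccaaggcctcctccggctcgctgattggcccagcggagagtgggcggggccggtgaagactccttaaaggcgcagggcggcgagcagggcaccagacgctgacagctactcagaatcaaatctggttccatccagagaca
Hspa1a: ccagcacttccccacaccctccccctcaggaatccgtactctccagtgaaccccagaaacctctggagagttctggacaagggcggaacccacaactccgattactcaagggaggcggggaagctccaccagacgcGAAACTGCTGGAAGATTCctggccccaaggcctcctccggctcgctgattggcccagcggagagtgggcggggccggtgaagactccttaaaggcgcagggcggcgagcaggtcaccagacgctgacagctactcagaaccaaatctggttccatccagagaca
Hspb1: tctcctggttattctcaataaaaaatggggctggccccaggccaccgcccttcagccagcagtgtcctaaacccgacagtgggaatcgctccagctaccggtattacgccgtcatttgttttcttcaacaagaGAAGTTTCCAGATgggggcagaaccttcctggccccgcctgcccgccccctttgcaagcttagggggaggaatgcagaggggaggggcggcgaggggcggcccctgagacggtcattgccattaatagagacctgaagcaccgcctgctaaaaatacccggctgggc
Hsph1: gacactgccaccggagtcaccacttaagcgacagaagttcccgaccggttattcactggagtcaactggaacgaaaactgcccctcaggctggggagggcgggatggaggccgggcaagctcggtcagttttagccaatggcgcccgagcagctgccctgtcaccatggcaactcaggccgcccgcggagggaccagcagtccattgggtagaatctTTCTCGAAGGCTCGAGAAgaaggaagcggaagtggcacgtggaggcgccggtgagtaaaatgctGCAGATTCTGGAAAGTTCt
Hspe1: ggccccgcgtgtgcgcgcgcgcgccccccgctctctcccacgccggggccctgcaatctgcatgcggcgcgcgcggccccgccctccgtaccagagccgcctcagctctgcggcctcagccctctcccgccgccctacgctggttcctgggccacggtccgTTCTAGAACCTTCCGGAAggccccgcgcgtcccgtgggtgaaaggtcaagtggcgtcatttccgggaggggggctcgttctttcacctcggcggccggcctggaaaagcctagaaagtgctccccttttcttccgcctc
The windows of *Hspa1a* and *Hspa1b* were identical at 296 of 300 positions and held the same pair of overlapping matches. *Hspe1* held 2 exact matches that overlap, *Hsph1* held matches before and after its start, and *Hspb8* held none in this window.

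Members made up 1.63% to 1.99% of all counts. Levels between genes are given per length, as CPM per kilobase of the principal transcript in ASP shSCR (mean ± SD, n = 4). *Hsp90ab1*, the constitutive cytosolic Hsp90, stood highest at 1415 ± 48.6, and *Hspa8*, the constitutive Hsp70, followed at 1065 ± 99.3. *Hsp90aa1*, the inducible Hsp90, at 334 ± 39.2, and the endoplasmic reticulum members *Hsp90b1* (Grp94) at 327 ± 30.5 and *Hspa5* (BiP) at 300.2 ± 36.2 lay within their spread of each other. In mitochondria, *Hspd1* (Hsp60) stood at 208 ± 31.6, its lid *Hspe1* (Hsp10) at 139 ± 28.0 and *Hspa9* (mortalin) at 117 ± 9.04. The TRiC subunits other than *Cct6b* spanned 118 to 278 CPM per kilobase, and each varied by 1.24 to 1.54 times between its lowest and highest library. *Cct6b* had at most 2 counts in every library and gets no fold.

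**Figure D1:**
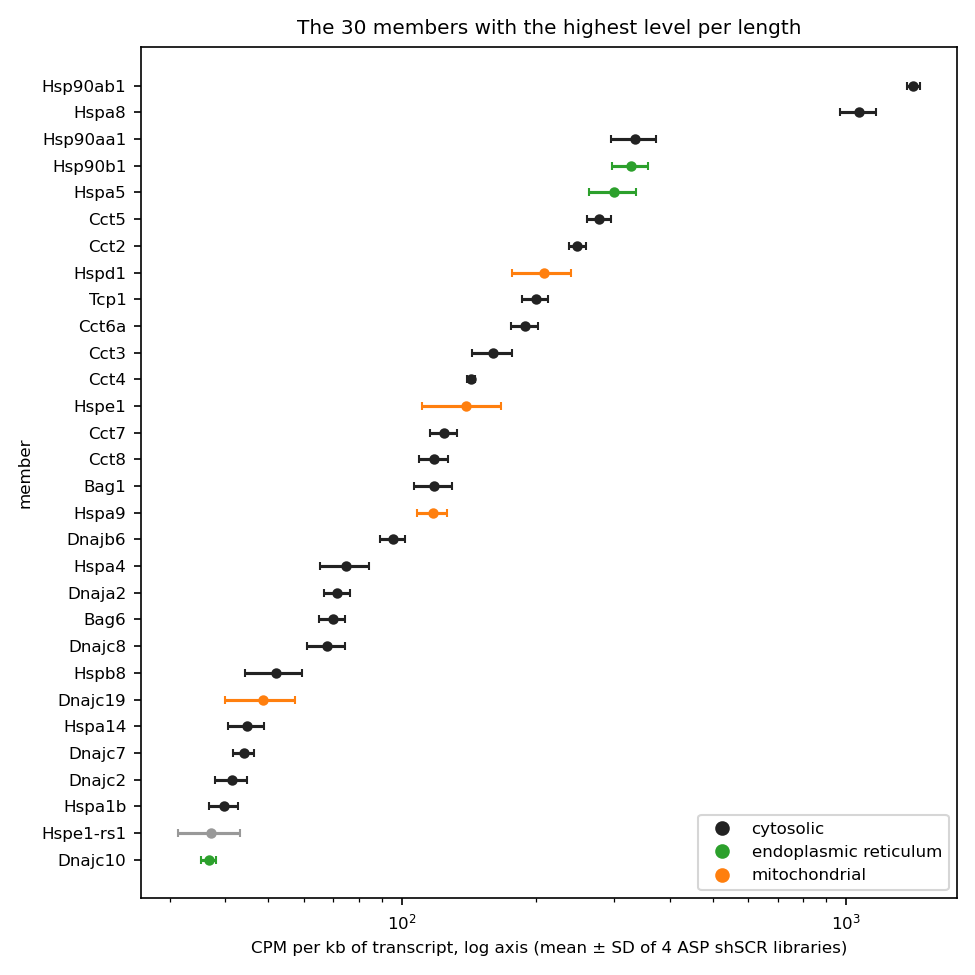
Levels of the 30 members with the highest CPM per kilobase of transcript in ASP shSCR, on a log axis. Points are means of 4 libraries, bars are the SD, and colours give the compartment. *Hsp90ab1* and *Hspa8* stand apart at 1415 and 1065, and the other 28 reach at most 334.

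The inducible Hsp70 was counted almost wholly on *Hspa1b*, at 80.5 to 169 CPM, with *Hspa1a* at 0 to 16 counts. Only 32.0% of the 31-base words of *Hspa1b* and 34.6% of those of *Hspa1a* occurred in no other gene of GENCODE M21, so the division of reads between them is uncertain. The same share was below 50% in 6 members, which included *Hspb1* (47.7%), *Hspd1* (49.9%) and *Hsp90aa1* (48.6%). Mean levels reached 5 CPM or more in 67 members and stayed below in 12: *Dnajb5*, *Hspa2*, *Hspb1*, *Hspb2*, *Dnajc28*, *Dnajc6*, *Dnajc12*, *Hspa1a*, *Hspa1l*, *Hspa12a*, *Hspb9* and *Cct6b*.

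**Figure D2:**
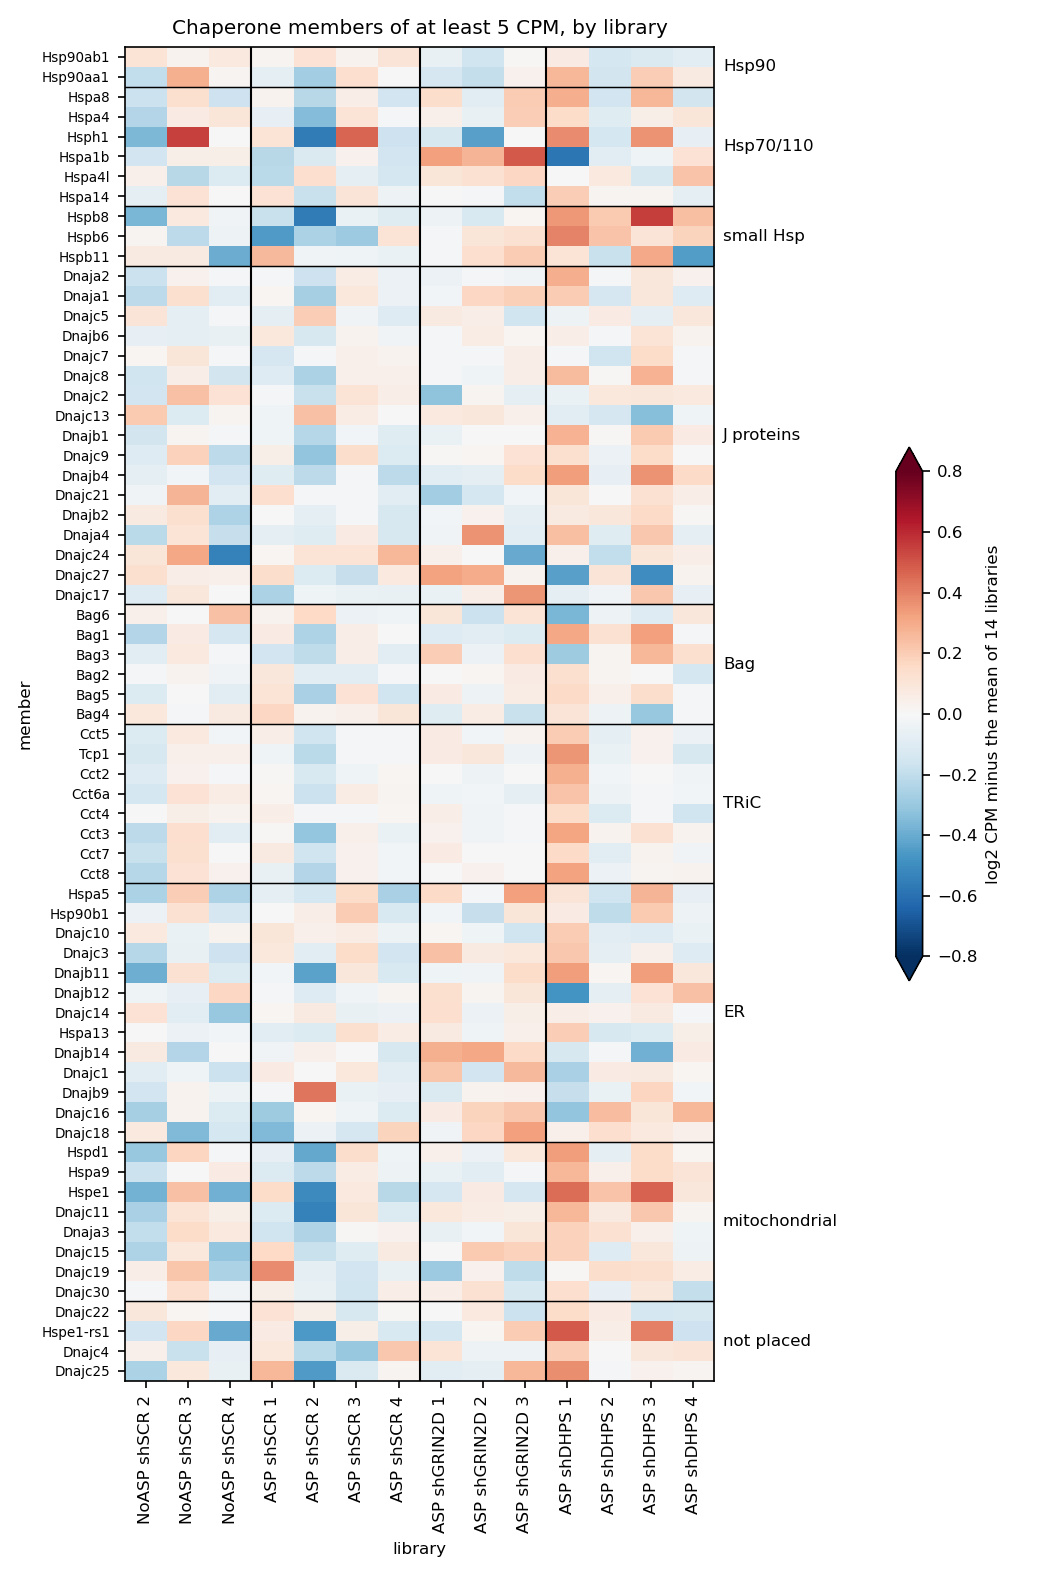
Log2 CPM of the 67 members of at least 5 CPM, each minus its own mean over the 14 libraries. Columns are libraries by group, rows are members by class, and the colour runs from -0.8 to 0.8. The replicate 2 libraries of both shSCR groups are blue for many members, ASP shDHPS replicates 1 and 3 are red for many, and *Hspa1b* is red in the 3 ASP shGRIN2D libraries.

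Added aspartate was compared with none in shSCR spheroids. No member passed the test (edgeR quasi-likelihood test on all 14 libraries, adjusted p under 0.05), and of all genes 0.0% did. At an unadjusted p under 0.05, edgeR gave 1 of 79 members and 424 of 19525 genes, and DESeq2 called 0 members. *Hspa1a* was that member, with 0, 1, 0 and 0 counts in ASP shSCR replicates 1 to 4 and 3, 7 and 3 counts in NoASP shSCR replicates 2 to 4. Its summed counts gave a ratio of 0.0578 between the groups (95% exact interval 0.00136 to 0.385, counting error only), and its edgeR adjusted p was 1.0.

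Replicate numbers paired the shSCR libraries, with correlated deviations in all 3 pairs. With the replicate number as a block in the 7 shSCR libraries, edgeR again called 0 members, against 0.328% of all genes, and 1 member had an unadjusted p under 0.05. Among the 67 members of at least 5 CPM, log2 fold changes ran from -0.14 to 0.15, and none had groups that did not overlap, against 1.91% of all genes of that level. *Hspa8* averaged 2550.0 CPM with aspartate and 2562 CPM without, *Hsp90ab1* 3567 and 3577 CPM, *Hspa5* 1102 and 1093 CPM, and *Hspd1* 505 and 519.7 CPM. The median log2 fold change was -0.03 over cytosolic, 0.02 over endoplasmic reticulum and -0.04 over mitochondrial members. Over all genes it was 0.00.

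Members also differed between replicate numbers. *Hsph1*, an Hsp110 that exchanges the nucleotide of Hsp70, lay at 132, 83.1, 169 and 109 CPM in ASP shSCR replicates 1 to 4 and at 95.3, 179 and 122 CPM in NoASP shSCR replicates 2 to 4. In both groups replicate 2 was lowest and replicate 3 highest, and the groups overlapped. *Hspd1* lay at 402 and 432 CPM in both replicate 2 libraries and at 587 and 599.8 CPM in both replicate 3 libraries. *Hspe1* lay at 81.1 and 88.8 CPM in the former and at 122 and 136 CPM in the latter.

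A test of the replicate terms within the 7 shSCR libraries, added after the data were seen, called 23 of 79 members (29.1%), against 16.0% of all genes. Of the 23 members, 22 were higher in replicate 3 than in replicate 2 (95.7%), against 52.4% of the 3127 genes called. In the values that follow, differences are replicate 3 minus replicate 2, and each adjusted p tested replicates 2, 3 and 4 jointly. No group held more than a single library of each number, so these adjusted p lean on a spread shared across genes. *Hsph1* differed by 0.98 on the log2 scale (edgeR adjusted p = 1.26e-26), *Hspe1* by 0.62 (1.74e-10), *Hspd1* by 0.53 (1.42e-09), *Dnajb11* by 0.54 (1.23e-06) and *Hsp90aa1* by 0.46 (7.77e-08). *Hspa5* was 0.38 higher in replicate 3 (edgeR adjusted p = 3.29e-08) and *Hspb8* 0.49 higher (2.53e-06). The exception was *Dnajc28*, 1.20 lower. What a replicate number stands for is not stated in the sources used here.

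**Figure D3:**
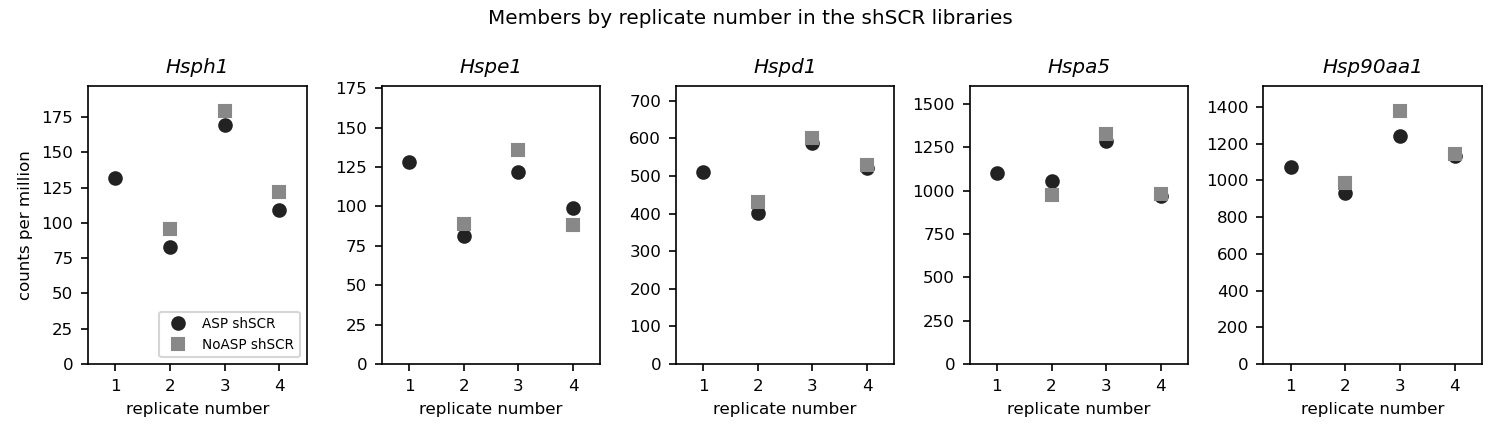
CPM of 5 members in the shSCR libraries by replicate number, with circles for ASP shSCR and squares for NoASP shSCR. Points of the same number lie close together in both groups, and replicate 3 is above replicate 2 in each panel, from 169 and 179 against 83.1 and 95.3 CPM for *Hsph1*.

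The replicate 2 libraries were also the lowest of their groups for many members. ASP shSCR replicate 2 was the lowest of its group for 36 of 67 members (53.7%) and for 36.1% of all genes of at least 5 CPM. NoASP shSCR replicate 2 was lowest for 35 of 67 (52.2%) against 35.2%. At the other end, ASP shSCR replicate 3 was the highest of its group for 29 of 67 members (43.3%) against 22.1%. NoASP shSCR replicate 3 was highest for 47 of 67 (70.1%) against 36.8%. The within-group SD of log2 CPM had a median of 0.139 over members and 0.156 over all genes of that level. *Hsph1* had the widest spread among the 67, at 0.361. Both knockdowns were tested against ASP shSCR, so their values also rest on its replicate 2. Counts above 0 without the replicate 2 libraries are given for all members, the endoplasmic reticulum members and, after *Dhps* knockdown, the mitochondrial members. They are not given for the heat-inducible, unfolded protein response and J protein lists, nor for groups that did not overlap.

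*Dhps* knockdown was compared with ASP shSCR, both with aspartate. Members passing the test were 3 of 79 (3.80%), all higher, against 4.22% of all genes. They were the small heat shock proteins *Hspb8* and *Hspb6* and the J protein *Dnajb5*. At an unadjusted p under 0.05 were 15 of 79 members (19.0%) and 19.3% of all genes.

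*Hspb8* (ENSMUSG00000041548), which works with *Bag3* in clearing misfolded proteins by autophagy, lay at 96.3, 74.1, 105 and 102 CPM in ASP shSCR replicates 1 to 4 and at 139, 126, 160 and 129 CPM in ASP shDHPS replicates 1 to 4. Every ASP shDHPS library was above every ASP shSCR library. Means were 138 ± 15.4 and 94.3 ± 13.9 CPM (SD, n = 4 each), a log2 fold change of 0.56 ± 0.11 (SE, edgeR adjusted p = 0.00638). *Hspb8* was called under all 18 alternatives, with log2 fold changes of 0.46 to 0.61. It lay at 106, 100.3 and 110.4 CPM in ASP shGRIN2D and at 84.5, 115 and 107 CPM in NoASP shSCR, below each ASP shDHPS library.

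*Hspb6* (ENSMUSG00000036854), also called Hsp20, lay at 14.3, 16.4, 16.0 and 21.1 CPM in ASP shSCR and at 25.7, 22.9, 21.0 and 22.1 CPM in ASP shDHPS. The groups overlapped through ASP shSCR replicate 4. Its log2 fold change was 0.44 ± 0.12 (SE, edgeR adjusted p = 0.0325). The edgeR adjusted p rose to 0.0863 and 0.0627 without ASP shDHPS replicate 1 or 2, to 0.101, 0.0785 and 0.0733 without ASP shSCR replicate 1, 2 or 3, to 0.0614 with only these groups fitted, and to 0.0619 without the replicate 2 libraries of both shSCR groups.

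*Dnajb5* (ENSMUSG00000036052), a J protein partner of Hsp70, lay at 3.28, 2.78, 3.04 and 3.54 CPM in ASP shSCR and at 4.68, 5.46, 4.81 and 5.18 CPM in ASP shDHPS. The groups did not overlap, and the counts behind these values were 45 to 97 per library. Its log2 fold change was 0.67 ± 0.18 (SE, edgeR adjusted p = 0.0391). Without any 1 of the 8 libraries the edgeR adjusted p lay at 0.0517 (without ASP shDHPS replicate 1) to 0.121 (without ASP shSCR replicate 2), with log2 fold changes that stayed above 0.6. Without the replicate 2 libraries of both shSCR groups, edgeR called 1 member, *Hspb8* (log2 fold change 0.46, adjusted p = 0.00642).

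**Figure D4:**
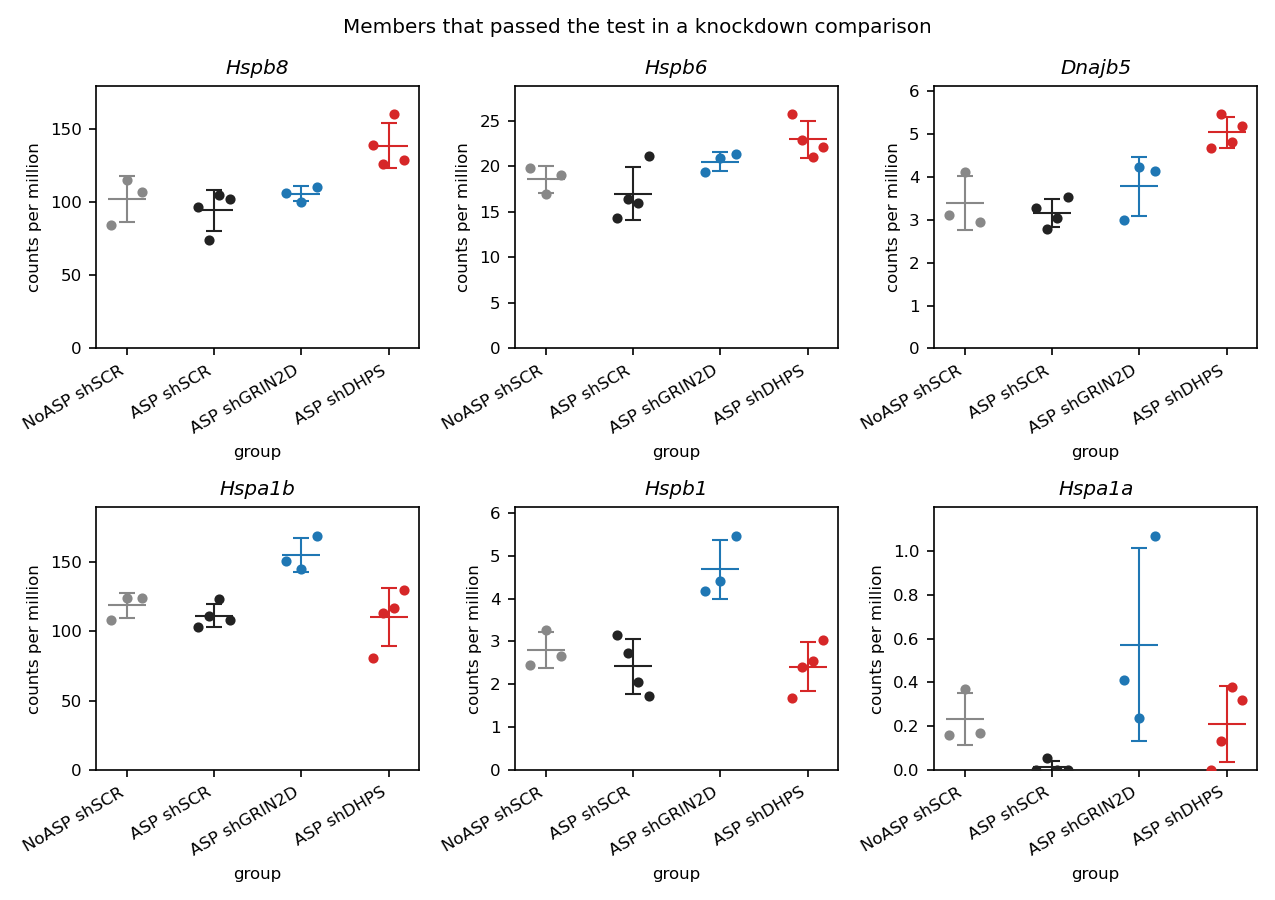
CPM of the 6 members that passed the test in a knockdown comparison, by group. Points are libraries, and horizontal marks and bars are the mean and SD. The means of *Hspb8*, *Hspb6* and *Dnajb5* are highest in ASP shDHPS and those of *Hspa1a*, *Hspa1b* and *Hspb1* in ASP shGRIN2D, where *Hspa1b* lies at 145 to 169 CPM against 103 to 123 CPM in ASP shSCR.

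After *Dhps* knockdown 58 of 78 members with a fold had a value above 0 (74.4%), against 50.4% of all genes, with a median of 0.09 against 0.00. Without the replicate 2 libraries of both shSCR groups these were 53 of 78 (67.9%), against 51.9%, and without ASP shDHPS replicate 1 they were 52 of 78 (66.7%), against 50.6%. Among members of at least 5 CPM, 4 of 67 had groups that did not overlap (5.97%), against 16.7% of all genes. These were *Hspb8*, *Dnajb1* and *Dnajb2*, which were higher, and *Dnajc13*, which was lower.

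All 8 mitochondrial members had log2 fold changes above 0 after *Dhps* knockdown, against 50.4% of all genes, with a median of 0.18. By edgeR 0 passed the test, against 4.22% of all genes, 3 of 8 had an unadjusted p under 0.05, against 19.3%, and DESeq2 called 0. *Hspe1* lay at 128, 81.1, 122 and 98.9 CPM in ASP shSCR and at 157, 135, 160.3 and 123 CPM in ASP shDHPS. These overlap, since the lowest ASP shDHPS library was below the highest ASP shSCR library. The log2 fold change was 0.42 ± 0.14 (SE, edgeR adjusted p = 0.1). *Dnajc11*, a J protein of the mitochondrial membranes, had 0.30 (edgeR adjusted p = 0.149), *Hspa9* 0.22 (0.152) and *Hspd1* 0.19 (0.367). With the replicate number as a block in all 14 libraries, edgeR called *Hspe1* (adjusted p = 0.00325) and *Dnajc11* (0.0241). Deviations from group means in ASP shDHPS and ASP shSCR correlated at r = 0.258, 0.195, 0.201 and 0.0404 for replicates 1 to 4. Only between the shSCR groups was r above 0.1 in every pair. Without the replicate 2 libraries of both shSCR groups, 7 of 8 were above 0 and the median was 0.11. Without ASP shDHPS replicate 1 these were 6 of 8 and 0.12.

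The other cytosolic and the endoplasmic reticulum members did not pass the test after *Dhps* knockdown. With the replicate block over 14 libraries, edgeR called *Dnajb11* (adjusted p = 0.00872) and *Dnajb4* (0.01) among them. The J protein *Dnajb4* had a log2 fold change of 0.33 (edgeR adjusted p = 0.0592, DESeq2 adjusted p = 0.0173) and *Dnajb1*, the main J partner of the inducible Hsp70, 0.24 (0.124, DESeq2 0.0453). *Hspa8* had 0.15 (edgeR adjusted p = 0.485), *Hsp90aa1* 0.15 (0.475), *Hsp90ab1* -0.14 (0.342), *Hsph1* 0.14 (0.724), *Dnaja1* 0.06 (0.778) and *Bag3* 0.14 (0.469). *Hspa1b* and *Hspb1* had -0.01 and -0.02. In TRiC, *Tcp1* had 0.13, *Cct2* 0.10 and *Cct5* 0.06, and ASP shDHPS replicate 1 was highest of its group for all 8 subunits, with a summed level of 3929.6 CPM against 3178 to 3352 CPM in the other 3. The median over the 13 endoplasmic reticulum members was 0.01 (-0.003 with scaling by library size only), with *Hspa5* at 0.12, *Hsp90b1* at -0.02, *Dnajb9* at -0.11 and *Dnajb11*, a cochaperone of BiP, at 0.31 (edgeR adjusted p = 0.145).

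*Grin2d* knockdown was compared with ASP shSCR. Members passing the test were 1 of 79 (1.27%), *Hspa1a*, against 1.16% of all genes. At an unadjusted p under 0.05 were 6 of 79 members (7.59%) and 10.4% of all genes.

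*Hspa1a* (ENSMUSG00000091971), an inducible Hsp70 gene, had 8, 4 and 16 counts in ASP shGRIN2D replicates 1 to 3 and 0, 1, 0 and 0 counts in ASP shSCR replicates 1 to 4. It had 0, 2, 7 and 6 counts in ASP shDHPS replicates 1 to 4. The ASP shGRIN2D libraries lay above all ASP shSCR libraries. They overlapped NoASP shSCR, which had 3, 7 and 3 counts (0.161 to 0.369 CPM, against 0.235 to 1.07 CPM in ASP shGRIN2D). The summed counts of 28 against 1 gave a ratio of 40.3 (95% exact interval 6.66 to 1646, counting error only), with an edgeR adjusted p of 0.0349. The edgeR adjusted p was 0.0748 and 0.251 without ASP shGRIN2D replicate 1 or 3 and 0.107, 0.0947 and 0.0963 without ASP shSCR replicate 1, 3 or 4. It is a near-copy of *Hspa1b*, and DESeq2 gave it no adjusted p.

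*Hspa1b* (ENSMUSG00000090877), which held nearly all counts of the pair, lay at 103, 111, 123 and 108 CPM in ASP shSCR and at 151, 145 and 169 CPM in ASP shGRIN2D. Every ASP shGRIN2D library was above every ASP shSCR and NoASP shSCR library. The log2 fold change was 0.48 ± 0.12 (SE) with an edgeR adjusted p of 0.0567, past the threshold by DESeq2 (adjusted p = 0.0138). With the counts of both genes summed, an alternative chosen after the data were seen, it was 0.48 (edgeR adjusted p = 0.0542), and 0 members were called.

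*Hspb1* (ENSMUSG00000004951), also called Hsp25 in mouse, lay at 3.15, 2.73, 2.06 and 1.73 CPM in ASP shSCR and at 4.17, 4.40 and 5.47 CPM in ASP shGRIN2D. These groups did not overlap, on 22 to 82 counts per library. The log2 fold change was 0.93 ± 0.24 (SE, edgeR adjusted p = 0.0699, DESeq2 adjusted p = 0.0207). *Hspb2*, a small heat shock protein known from muscle, had 1.04 ± 0.31 (SE, edgeR adjusted p = 0.128), on 20 to 60 counts.

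After *Grin2d* knockdown the median log2 fold change was 0.06. Values above 0 were found in 54 of 78 members (69.2%), against 50.3% of all genes, and in 47 of 78 (60.3%), against 51.0%, without the replicate 2 libraries of both shSCR groups. Of 67 members of at least 5 CPM, 5 had groups that did not overlap (7.46%), against 17.1% of all genes. *Hspa1b* and the endoplasmic reticulum J proteins *Dnajb12*, *Dnajb14* and *Dnajc16* were higher in all ASP shGRIN2D libraries, and *Hsp90ab1* was lower in all of them. *Dnajb14*, a J protein of the endoplasmic reticulum membrane, lay at 69.7, 70.8 and 63.7 CPM against 52.3 to 58.8 CPM (log2 fold change 0.28, edgeR adjusted p = 0.305). *Hsp90ab1* lay at 3264, 3051 and 3429 CPM against 3459 to 3689 CPM (log2 fold change -0.13, edgeR adjusted p = 0.599).

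Of 11 heat-inducible members, 1 had a value above 0 for aspartate, 9 after *Grin2d* knockdown and 9 after *Dhps* knockdown, against 50.6%, 50.3% and 50.4% of all genes. By edgeR 0, 1 (*Hspa1a*) and 1 (*Hspb8*) of them passed, against 0.0%, 1.16% and 4.22% of all genes, with 1, 3 and 4 at an unadjusted p under 0.05 and 0, 2 and 3 called by DESeq2. Of 7 members induced by the unfolded protein response, 7, 4 and 4 were above 0 and 0 passed in each (edgeR, with 0, 0 and 1 at an unadjusted p under 0.05, and 0 by DESeq2). Each of these comparisons uses the ASP shSCR libraries, and these counts are not given without its replicate 2. In the direct comparison of the knockdowns, 5 of 11 and 4 of 7 were above 0, against 51.3% of all genes. By edgeR 2 heat-inducible members passed there, *Hspa1b* and *Hspb1*, both lower, against 2.82% of all genes. After *Grin2d* knockdown the log2 fold change was 0.16 for *Hspa8*, 0.16 for *Dnaja1*, 0.07 for *Dnajb1*, -0.05 for *Hsp90aa1*, -0.19 for *Hsph1*, 0.19 for *Bag3* and 0.16 for *Hspb8*. In the endoplasmic reticulum it was 0.24 for *Hspa5* (edgeR adjusted p = 0.527), -0.07 for *Hsp90b1*, -0.11 for *Dnajb9*, 0.14 for *Dnajb11* and 0.13 for *Dnajc3*, an inhibitor of the kinase PERK. In mitochondria *Hspa9*, *Hspd1* and *Hspe1* had 0.02, 0.11 and 0.04. In TRiC *Tcp1*, *Cct2* and *Cct5* had 0.11, 0.02 and 0.05.

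**Figure D5:**
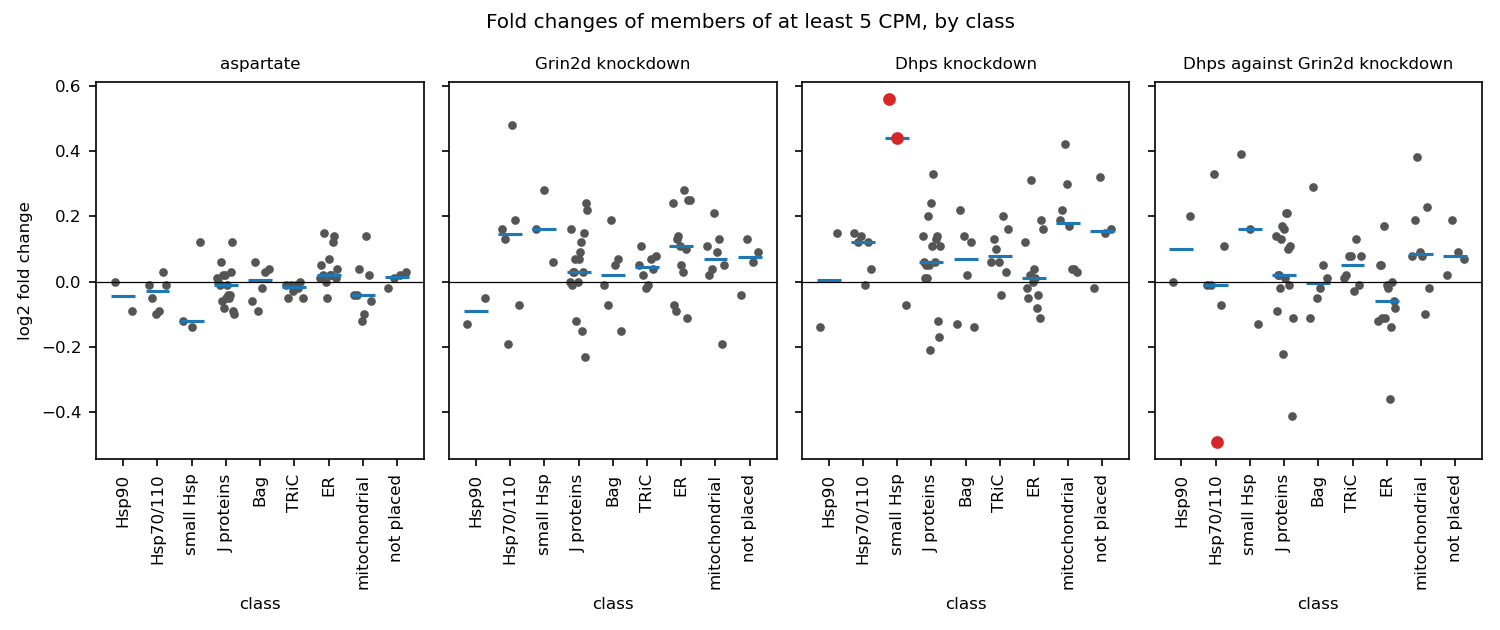
Log2 fold changes of the 67 members of at least 5 CPM in 4 comparisons, by class. Points are members, red points passed the test, and blue lines are class medians. Aspartate values stay within -0.14 to 0.15, both red points after *Dhps* knockdown are small heat shock proteins, and the red point in the direct comparison is *Hspa1b*.

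Both knockdowns share the ASP shSCR libraries, so they were compared directly, ASP shDHPS with ASP shGRIN2D. Members passing the test were 2 of 79 (2.53%), *Hspb1* and *Hspa1b*, both lower in ASP shDHPS, against 2.82% of all genes. At an unadjusted p under 0.05 were 12 of 79 members (15.2%) and 14.8% of all genes.

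*Hspa1b* lay at 80.5, 113, 117 and 130.1 CPM in ASP shDHPS replicates 1 to 4, all below the 145 to 169 CPM of ASP shGRIN2D. The difference was -0.49 ± 0.12 on the log2 scale (SE, edgeR adjusted p = 0.0276). It missed the threshold without ASP shGRIN2D replicate 1, 2 or 3 (edgeR adjusted p = 0.0932, 0.0522 and 0.163) and without ASP shDHPS replicate 2 (0.0516).

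*Hspb1* lay at 1.68, 2.40, 2.54 and 3.04 CPM in ASP shDHPS, all below the 4.17 to 5.47 CPM of ASP shGRIN2D. The difference was -0.95 ± 0.24 (SE, edgeR adjusted p = 0.035). Without ASP shGRIN2D replicate 1, 2 or 3 the edgeR adjusted p was 0.0863, 0.0852 and 0.185, and without ASP shDHPS replicate 1, 2 or 3 it was 0.0983, 0.0717 and 0.0684.

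*Hspb8* was 0.39 ± 0.12 higher in ASP shDHPS than in ASP shGRIN2D (SE, edgeR adjusted p = 0.0939), and DESeq2 placed it past the threshold (adjusted p = 0.0465). *Hspe1* was 0.38 higher (edgeR adjusted p = 0.223), *Hspa9* 0.19 higher (0.314) and *Hsph1* 0.33 higher (0.469). Of 67 members of at least 5 CPM, 10 had groups that did not overlap (14.9%), against 21.5% of all genes. The 7 that were higher in ASP shDHPS were *Hspb8*, *Bag1*, *Hspe1*, *Hspa9*, *Dnajc21*, *Dnajb1* and *Dnaja2*, and *Hspa1b*, *Dnajb14* and *Dnajc13* were lower.

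By class, the members spread as follows in these comparisons. The 8 TRiC subunits with a fold had values of -0.05 to 0.00 for aspartate, -0.02 to 0.11 after *Grin2d* knockdown and -0.04 to 0.20 after *Dhps* knockdown. Their median after *Dhps* knockdown was 0.081 and became 0.008 without ASP shDHPS replicate 1. In the direct comparison it was 0.05 and became -0.03 without that library. By edgeR 0 of them passed in any comparison, with 0, 0, 1 and 0 unadjusted p under 0.05 for aspartate, *Grin2d*, *Dhps* and the direct comparison, and DESeq2 called 0. Of the 20 cytosolic and nuclear J proteins, 8 were above 0 for aspartate, 14 after *Grin2d* and 16 after *Dhps* knockdown. Of all genes 50.6%, 50.3% and 50.4% were above 0. By edgeR 1 J protein, *Dnajb5*, was called after *Dhps* knockdown, against 4.22% of all genes, and 5 had an unadjusted p under 0.05, against 19.3%. DESeq2 called *Dnajb5*, *Dnajb4* and *Dnajb1* there. The 6 Bag cochaperones had values of -0.09 to 0.06, -0.15 to 0.19 and -0.14 to 0.22, and by edgeR and DESeq2 0 passed (0, 0 and 1 with an unadjusted p under 0.05 by edgeR). Of the 13 endoplasmic reticulum members, 12, 10, 8 and 4 were above 0 for aspartate, *Grin2d*, *Dhps* and the direct comparison, against 50.6%, 50.3%, 50.4% and 51.3% of all genes. Without the replicate 2 libraries of both shSCR groups these were 8, 10, 6 and 4, and the *Dhps* median was -0.004.

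The summed small heat shock proteins lay at 135, 111, 139.9 and 143 CPM in ASP shSCR, at 148, 147 and 159.9 CPM in ASP shGRIN2D and at 185, 168, 206 and 168 CPM in ASP shDHPS. Each ASP shDHPS library was above every other library, and *Hspb8* made up most of each sum. The summed mitochondrial members lay at 1184, 971, 1292 and 1177 CPM in ASP shSCR, at 1206, 1196 and 1242 CPM in ASP shGRIN2D and at 1502, 1230.5, 1379 and 1258 CPM in ASP shDHPS, ranges that overlapped.

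Genes of the same pathways that are no members were taken from lists. Of 24 heat shock factors and cytosolic cochaperones, 0, 1, 2 and 2 passed the test for aspartate, *Grin2d* knockdown, *Dhps* knockdown and the direct comparison (edgeR, with 0, 5, 5 and 3 at an unadjusted p under 0.05, and 0, 2, 2 and 2 by DESeq2). Of all genes 0.0%, 1.16%, 4.22% and 2.82% passed in these comparisons, the background for this and the next lists. *Cryab*, the small heat shock protein alphaB-crystallin, reached at most 14.8 CPM in ASP shSCR and lay at 18.9, 21.2 and 21.5 CPM in ASP shGRIN2D and at 15.2, 18.5, 20.4 and 19.4 CPM in ASP shDHPS. Both knockdown groups lay above all 7 shSCR libraries. The log2 fold change was 0.83 (edgeR adjusted p = 0.00186) after *Grin2d* and 0.67 (edgeR adjusted p = 0.00463) after *Dhps* knockdown, and it was called under all 17 and all 18 alternatives.

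*Unc45a*, an Hsp90 cochaperone, rose by 0.41 after *Dhps* knockdown (edgeR adjusted p = 0.0485), a call that was lost under 10 of 18 alternatives, among them without ASP shDHPS replicate 1 (0.0579), 3 (0.147) or 4 (0.0929) and without ASP shSCR replicate 1 (0.0773), 2 (0.177) or 4 (0.0831). In ASP shDHPS against ASP shGRIN2D, *St13*, a cofactor of Hsp70, was higher by 0.42 (edgeR adjusted p = 0.03) and *Fkbp5*, an Hsp90 cochaperone of steroid receptors, lower (-0.41, edgeR adjusted p = 0.00677). *St13* lost its call without ASP shGRIN2D replicate 1 (0.103), 2 (0.164) or 3 (0.0722) and without ASP shDHPS replicate 1 (0.0677) or 3 (0.0821), and *Fkbp5* without ASP shGRIN2D replicate 1 (0.0671). *Hsf1*, the main inducer of heat shock genes, lay at 39.0 to 57.4 CPM, with log2 fold changes of -0.02 to 0.02 in the 4 comparisons.

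Of 19 genes of endoplasmic reticulum folding and the unfolded protein response, 0, 1, 1 and 1 passed in the same order (edgeR, with 0, 2, 2 and 5 at an unadjusted p under 0.05, and 0, 1, 1 and 2 by DESeq2). *Xbp1*, a transcription factor of that response, lay at 73.9, 66.5 and 68.3 CPM in ASP shGRIN2D against 83.9 to 118 CPM in ASP shSCR (log2 fold change -0.58, edgeR adjusted p = 0.00692). The call was lost without ASP shGRIN2D replicate 2 (0.0638) or 3 (0.057). *Ddit3*, which encodes the stress factor CHOP, lay at 22.2, 21.9, 29.2 and 21.4 CPM in ASP shDHPS against 9.14, 21.7, 13.1 and 11.9 CPM in ASP shSCR, where replicate 2 reached into the ASP shDHPS range. It was 0.76 higher in ASP shDHPS than in ASP shSCR (edgeR adjusted p = 0.0217) and 0.78 higher than in ASP shGRIN2D (0.0402). The first call was lost without ASP shDHPS replicate 3 (0.0971) or ASP shSCR replicate 1 (0.0634) or 4 (0.069). The second was lost under 8 of 17 alternatives, with filterByExpr (0.0515), with the robust prior (0.0857), without ASP shGRIN2D replicate 1 (0.208), 2 (0.129) or 3 (0.1) and without ASP shDHPS replicate 1 (0.0579), 2 (0.0562) or 3 (0.138).

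Of 12 genes of mitochondrial folding and proteolysis, 0, 0, 0 and 1 passed (edgeR, with 0, 1, 3 and 3 at an unadjusted p under 0.05, and 0, 1, 0 and 1 by DESeq2). *Lonp1*, a protease of the mitochondrial matrix, lay at 89.1, 117, 139.6 and 135 CPM in ASP shDHPS and at 79.5, 72.9 and 76.8 CPM in ASP shGRIN2D, groups that did not overlap (log2 difference 0.66, edgeR adjusted p = 0.00319, called under all 17 alternatives). Of the 4 epithelial markers, 1 passed the edgeR test after each knockdown, and 3 had an unadjusted p under 0.05 after each. DESeq2 called *Epcam*, *Krt18* and *Krt8* after *Grin2d* knockdown and *Epcam* and *Krt18* after *Dhps* knockdown. The summed level of the 4 markers was 3883 to 4051 CPM in the 7 shSCR libraries, 3007 to 3239 CPM in ASP shGRIN2D and 3126 to 3661 CPM in ASP shDHPS. *Krt18* fell by 0.46 after *Grin2d* knockdown (edgeR adjusted p = 0.019) and *Epcam* fell by 0.52 after *Dhps* knockdown (0.000779). *Krt8* had log2 fold changes of -0.33 and -0.19 and *Cdh1* of -0.06 and 0.04 after *Grin2d* and *Dhps* knockdown. The part of these markers in the chaperone values was not tested. In bulk RNA, fewer cells of a type and less RNA per cell cannot be told apart.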

How the data were processed

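The authors trimmed reads with Trim Galore 0.6.6, checked them with FastQC 0.11.9, mapped them to GRCm39 with STAR 2.6.1, estimated gene counts with Salmon 1.4.0 and rounded them. The annotation release is not given in the sources used here. The deposited counts cover 19525 genes, after a filter by the authors that required expression in 2 or more replicates of some condition. The authors' tables of DESeq2 1.34.0 log2 fold changes, p-values and gene set scores for aspartate were not used.

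Counts were tested with edgeR 4.0.16 in R 4.3.3 (TMM factors 0.984 to 1.02, quasi-likelihood fit of 14 libraries by group, Benjamini-Hochberg adjustment over 19525 genes, threshold 0.05). CPM were scaled by TMM. Each library was mapped to a group by its description. The script was tested on simulated data. Replicate pairs differed beyond sampling noise (chi-square per degree of freedom 7.69 to 41.8).

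Replicate numbers paired the shSCR libraries (r = 0.514, 0.287 and 0.203 for numbers 2, 3 and 4), and the source of the pairing is this correlation. Elsewhere r was not above 0.1 in every pair.

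Members and lists were chosen with earlier results of these data known. Named genes were members called in any comparison (at most 15 each), 22 fixed members, and listed genes called (at most 5 per list). Other genes given with values were picked after these were seen. A gene whose libraries all held 3 counts or fewer got no fold. Alternatives were DESeq2 1.42.0, RLE size factors, library size, filterByExpr (73 of 79 members kept), a robust prior, only the groups compared, the replicate block, leaving out the replicate 2 libraries of both shSCR groups, and leaving out each library. Added after the data were seen were summed near-copies and the replicate test. Transcript lengths and 31-base words came from GENCODE M21 and promoters from RefSeq (GRCm38.p6), a build other than that of the counts, so no coordinates were joined.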

Additional observations from a re-analysis of the deposited data

Results flagged for a closer look

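Among 62 groups of 4 libraries, 5 had 1 library far from the other 3. The nominal rate of the rule is about 1 in 20 such groups and was not estimated from these data. In ASP shSCR, replicate 2 stood apart for *Tcp1* (439.9 CPM, lowest), *Dnajb9* (35.3 CPM, highest) and *Hspa1a* (0.0557 CPM, a single count). In ASP shDHPS, *Cct2* was apart at 607 CPM in replicate 1 and *Ddit3* at 29.2 CPM in replicate 3.

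The *Dhps* knockdown differed from the *Grin2d* knockdown for 6 of the genes followed (edgeR, direct comparison). Genes called in this comparison were followed for that reason, so the count of 6 is not a separate result. Of all genes 2.82% passed in it. The difference on the log2 scale was -0.95 for *Hspb1*, -0.49 for *Hspa1b*, -0.41 for *Fkbp5*, 0.42 for *St13*, 0.78 for *Ddit3* and 0.66 for *Lonp1*.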

How the results depend on the processing

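For aspartate, 0 members were called under every alternative run. For *Grin2d* knockdown the 1 member called became 2 with DESeq2, 0 with filterByExpr, 2 with the robust prior, 2 with only the groups compared and 0 with near-copies summed, and 0 to 1 without 1 library. For *Dhps* knockdown the 3 became 5 with DESeq2, 1 without the replicate 2 libraries of both shSCR groups, and 1 to 2 without 1 library. For the direct comparison the 2 became 4 with DESeq2 and 0 to 3 without 1 library. In the other cases counts stayed within 1.5 times. The construction of filterByExpr left *Hspa1a* untested, and the cause of the other shifts was not tested.

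With the replicate block over 14 libraries, the counts were 0 for aspartate, 4 for *Grin2d*, 7 for *Dhps* and 7 for the direct comparison. With the replicate block and only the groups compared, they were 0, 2, 7 and 8. Only the shSCR numbers met the pairing criterion (r for *Grin2d* -0.101, -0.117 and 0.042, for *Dhps* 0.258, 0.195, 0.201 and 0.0404, for the direct comparison 0.00533, 0.0328 and 0.231).

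Of 2404 values of folds and medians under alternatives, 2279 kept their side or moved by less than their error, 61 lost a call, 33 gained one, 31 moved and 0 reversed a called direction. Of 16 class medians, none of them tested, 6 changed sign under an alternative. For aspartate these were the cytosolic (-0.026, and 0.016 without NoASP shSCR replicate 3), mitochondrial (-0.04, and 0.028 and 0.033 without ASP shSCR replicate 2 or NoASP shSCR replicate 3) and TRiC medians (-0.018, and 0.02 and 0.022 without the same libraries). The others were TRiC for *Grin2d* (0.045, and -0.003 without ASP shSCR replicate 2), TRiC in the direct comparison (0.05, and -0.03 without ASP shDHPS replicate 1) and endoplasmic reticulum for *Dhps* (0.01, and -0.01 without ASP shSCR replicate 2). Members under 5 CPM, among them *Hspb1*, *Hspb2*, *Dnajb5* and *Hspa1a*, rest on few counts, so their differences are less precise. The uniqueness of near-copies was read from an annotation of another genome build than that of the counts.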
